A study of Mus musculus with 27 samples.

Results

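Chemokines are small secreted proteins that direct the movement of cells by binding G protein-coupled receptors on the surface of the cells they attract. The chemokine and chemokine receptor genes described here were all genes with a family symbol (Ccl, Cxcl, Cx3cl1 and Xcl1 for ligands, Ccr, Cxcr, Cx3cr1 and Xcr1 for receptors, Ackr for atypical receptors) that were measured by a probe set listed with a single gene. There were 55 of them among 19937 genes: 19 CC ligands, 13 CXC ligands, 2 ligands of the CX3C and XC classes, 17 receptors and 4 atypical receptors, which bind chemokines without the usual G protein signal. A gene with several probe sets was represented by whichever had the highest mean across all 27 arrays; this concerned Ccl19 and Ccl25. Measured values played no part in choosing the genes beyond that. Ccl21 and Ccl27 were not analysed here.

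The arrays, of Affymetrix make, covered 27 mouse samples. Cultured samples comprised 10 lines of immortalized neural stem cells, each measured once, and 2 samples of cultured normal neural stem cells (NSCs), from which neurons and glia arise. Lines 3, 28, 31, 59, 95 and 116 were labelled p53 mutant and lines 119, 120, 123 and 331 p53 WT, and the normal NSCs were labelled WT. Tissue came as 12 tumors grown from 4 lines, with 3 tumors a line, and as normal subcutaneous tissue (SubQ) in 3 samples labelled WT. Tumors of lines 1 and 123 were labelled WT and those of lines 31 and 59 p53 mutant; line 1 was profiled here only as tumors. The labels of every sample, cultures included, carry the host strain CB17/ICR-Prkdcscid/IcrCrl, whose Prkdc mutation leaves mice without mature T and B cells but with macrophages, neutrophils and natural killer cells. The tissue label of the tumors is subcutaneous, and no age or time of collection is given in the sources used here. The labels number tumors and SubQ samples as biological replicates but do not name separate animals, and say nothing of separate NSC cultures. The p-values therefore reflect only the spread among the samples at hand, which may be technical.

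In this family, inflammatory ligands such as Ccl2, Ccl7 and Ccl12 bring in monocytes through Ccr2, and Cxcl1, Cxcl2, Cxcl3 and Cxcl5 bring in neutrophils through Cxcr2. Homeostatic ligands such as Cxcl12, Ccl19 and Cxcl13 position cells in resting tissue through Cxcr4, Ccr7 and Cxcr5. Many inflammatory ligand genes lie side by side in clusters and are switched on by NF-kB and interferon signals. Of the 55 genes, 14 lie on chromosome 11, among them a run of neighbours Ccl2, Ccl7, Ccl11, Ccl12, Ccl8 and Ccl1 and a run Ccl5, Ccl9, Ccl6, Ccl3 and Ccl4. Cxcl3, Cxcl15, Cxcl1 and Cxcl2 are neighbours on chromosome 5.

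The promoters of Cxcl1, Cxcl2 and Cxcl3 are shown because these neighbours were among the genes that differed between tumor lines, described further on. They come from RefSeq's promoter windows of assembly GRCm38.p6, which held 41 of the 55 genes, and cover 120 to 31 bases before the gene start, 5′ to 3′ on the + strand. Capitals mark the longest run of letters that the 250 bases before the 3 gene starts have in common. Cxcl15, their neighbour, also differed between tumor lines, but its promoter is not shown and was not used to find these letters.
Cxcl1, chr5:90891125-90891214: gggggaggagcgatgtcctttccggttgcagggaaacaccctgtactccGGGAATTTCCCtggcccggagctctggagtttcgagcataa
Cxcl2, chr5:90903779-90903868: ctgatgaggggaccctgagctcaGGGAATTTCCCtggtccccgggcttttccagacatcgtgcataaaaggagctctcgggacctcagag
Cxcl3, chr5:90785981-90786070: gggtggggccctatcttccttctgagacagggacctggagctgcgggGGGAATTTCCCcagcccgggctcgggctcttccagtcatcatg
The shared run, GGGAATTTCCC, is 11 bases long and holds the letters of a classical NF-kB site. It began 71 bases before the start of Cxcl1, 97 before Cxcl2 and 73 before Cxcl3. Searched on both strands, it was present in 14 of 32851 such windows of all genes (0.0426%), and among the 41 chemokine and receptor genes in these 3, which is by construction. The stretch was chosen with the expression values known, and a match shows only that these letters are in the window.

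Values are log2 expression levels as deposited, on which 1 unit is a 2-fold difference, and levels of different probe sets are not compared with each other. Array medians over all genes were 7.18 to 7.28 for lines, 7.25 to 7.27 for NSCs, 5.66 to 5.75 for tumors and 5.82 to 5.87 for SubQ. The SubQ arrays stood apart: the SD over genes was 0.87 to 1.02 there against 1.63 to 1.79 in the tumors, and Actb, the beta-actin gene, read 8.35 to 9.83 against 11.92 to 12.63. Among the 4984 genes under the 25th percentile of their mean level, 4615 were called lower in tumors than in SubQ, with a median difference of -1.13. Trp53 itself was not analysed here. Markers of the labelled tissues were present in part. The mean percentile within the array of 8 neural stem cell and glial genes was 86.9 to 87.2 for NSCs, 45.9 to 62.6 for lines, 33.4 to 62.6 for tumors and 41.6 to 52.4 for SubQ, so that lines, tumors and SubQ overlapped. The summed log2 level of 5 adipocyte genes was 36.6 to 38.3 in SubQ against 24.3 to 34.9 in the tumors. Genes of muscle and epidermis were high in SubQ too. The mean percentile of 6 skeletal muscle genes was 88.8 to 94.6 there against 49.2 to 83.5 in tumors. For 7 keratinocyte genes it was 77.0 to 91.2 against 26.3 to 74.8. In whole tissue, more cells of a type and more RNA per cell cannot be told apart.

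Immortalized lines were first set against normal NSCs. Cxcl12, Ccl2 and Ccl7 were higher in the lines, and no member of the family was called lower. Cxcl12, the ligand of Cxcr4 and Ackr3, was at 6.25 and 6.02 in the NSC cultures, percentiles 27.0 and 20.9 of their arrays, and between 8.82 and 10.65 in the 10 lines, with a median of 9.90. Every line lay above both NSC cultures, and the difference was 3.66 ± 0.40 (SE, 10 lines against 2 cultures, adjusted p = 2.7e-05, limma). Ccl2, the main attractant of monocytes, was at 7.21 and 6.94 in the NSC cultures and between 8.05 and 11.62 in the lines, with a median of 9.73. The lines did not overlap with the NSC cultures, and the difference was 2.66 ± 0.64 (adjusted p = 0.012). Ccl7, its neighbour on chromosome 11 and a further Ccr2 ligand, was at 6.96 and 7.06 in the NSC cultures and between 7.62 and 9.30 in the lines, again without overlap (difference 1.44 ± 0.38, adjusted p = 0.020).

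The 3 genes called higher of 55 compare with 6.79% of all genes called higher and 8.22% called lower, so calls were not more common here than among all genes. At an unadjusted p under 0.05 there were 7 of 55 members and 5242 of 19937 genes. Lines and NSC cultures did not overlap in 5 members (9.09%, against 21.3% of all genes), and the median difference was 0.12 over the members and -0.01 over all genes. The Cxcl12 call held with each sample left out in turn. The calls of Ccl2 and Ccl7 rested on having both NSC cultures: without the first culture the adjusted p was 0.097 for Ccl2 and 0.17 for Ccl7, without the second 0.14 and 0.15, at differences of 2.80, 1.39, 2.53 and 1.49.

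**Figure D1:**
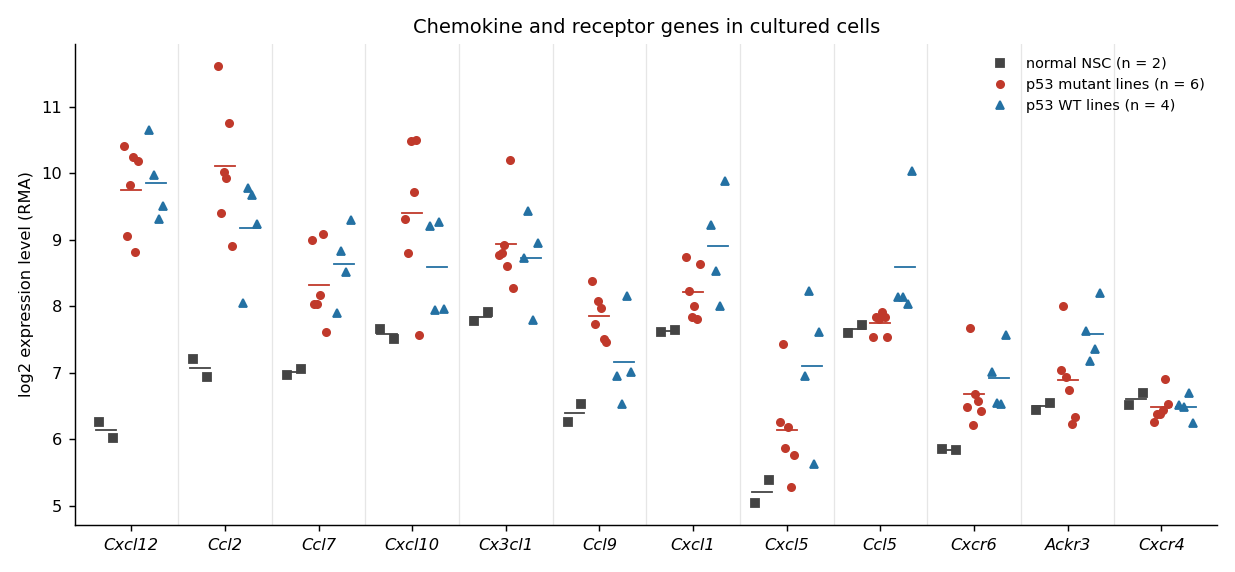
Log2 expression level (RMA, vertical axis) of 12 chemokine and receptor genes in 2 normal NSC cultures (squares), 6 p53 mutant lines (circles) and 4 p53 WT lines (triangles); each point is 1 culture and each bar a group mean. All 10 lines lie above both NSC cultures for Cxcl12, Ccl2 and Ccl7, and lines of both p53 labels overlap for these genes.

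Other ligands varied from line to line and did not pass the test. Cxcl10, an interferon-induced ligand of Cxcr3, ranged from 7.57 to 10.50 with a median of 9.24 in the lines and was 7.66 and 7.51 in the NSC cultures (difference 1.49, adjusted p = 0.17). Line 116, at 7.57, lay between the NSC cultures, and lines 31 and 95 were the highest, at 10.49 and 10.50. Cxcl5, a Cxcr2 ligand, ranged from 5.27 in line 95 to 8.23 in line 120, against 5.04 and 5.38 in the NSC cultures (difference 1.31, adjusted p = 0.22). Cxcl1, of the same function, ranged from 7.81 to 9.88 with a median of 8.38, above 7.62 and 7.64 in every line (difference 0.86, adjusted p = 0.24). Ccl9, which acts through Ccr1, ranged from 6.53 to 8.38 against 6.27 and 6.54 (difference 1.18, adjusted p = 0.065). Cx3cl1, the membrane-bound ligand of Cx3cr1, ranged from 7.79 to 10.20 with a median of 8.79, against 7.77 and 7.91 (difference 1.01, adjusted p = 0.14). The 10.20 belongs to line 95, and line 123, at 7.79, lay between the NSC cultures.

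Ccl19 and Ccl25, ligands of Ccr7 and Ccr9, differed less. Ccl19 ranged from 8.36 to 9.22 in the lines, with a median of 8.92, which spans both NSC cultures (difference 0.10, adjusted p = 0.85). Ccl25 ranged from 7.38 to 9.03, with a median of 8.60, and was 8.54 and 8.26 in the NSC cultures (difference 0.12, adjusted p = 0.88). Ccl5, a ligand of several CC receptors, was 7.59 and 7.72 in the NSC cultures, 7.53 to 8.15 in 9 lines and 10.04 in line 331.

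No receptor gene was called between lines and NSC cultures. Of 17 receptors, 10 were under the 25th percentile of all genes in both groups. Ccr2, the receptor of Ccl2, was 4.29 to 4.63 in the lines, with a median of 4.41, and 4.35 and 4.73 in the NSC cultures. Cxcr2, the receptor of Cxcl1, was 4.32 to 4.84 against 4.82 and 4.48. Ccr6, the receptor of Ccl20, was 5.76 to 6.14 against 5.50 and 6.02, and Ccl20 was 6.51 to 7.26 against 6.71 and 6.82. All these ranges overlap with the NSC values.

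Cxcr4, the signalling receptor of Cxcl12, was 6.25 to 6.91 in the lines, with a median of 6.46, and 6.51 and 6.70 in the NSC cultures (difference -0.13, adjusted p = 0.69). Ackr3, which takes up and degrades Cxcl12, was 6.23 to 8.20 in the lines, with a median of 7.11, and 6.44 and 6.55 (difference 0.67, adjusted p = 0.38). In Ackr3, 8 lines were higher than both NSC cultures, and lines 95 and 116 were lower than both. Cx3cr1 was 7.21 to 7.96 against 7.41 and 7.39 (difference 0.21), and Ccr7 7.69 to 8.02 against 7.91 and 8.03. Cxcr6, the receptor of Cxcl16, was 6.21 to 7.68 in the lines, above 5.85 and 5.84 in every line, without passing the test (difference 0.93, adjusted p = 0.079).

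Genes related to chemokines were counted by list, where 6.79% of all genes were called higher and 8.22% lower. Of 31 measured inducers and NF-kB pathway genes, 11 were higher in the lines and none lower in the limma fit. Unadjusted p was under 0.05 for 17 of them, and for 5242 of all 19937 genes. The median difference of the list was 0.60 against -0.01 over all genes. Csf1, the growth factor of macrophages, was higher by 3.14, Il6 by 1.83, the NF-kB feedback inhibitor Tnfaip3 by 1.50, the TNF receptor gene Tnfrsf1b by 1.41, the interferon-response factor Irf1 by 1.35 and the NF-kB subunit Rel by 1.05. Of 27 signalling genes below the receptors, the receptor kinase Grk5 was higher by 1.08 and the Rac activator Prex1 was lower by 0.89 (log2 difference -0.89). Of 9 chemokine-like genes outside the symbol rule, Mif and Cmtm7 were higher, by 0.53 and 0.99, and Rarres2, which encodes chemerin, was lower (-0.50). Of 5 genes for chemokine-binding proteoglycans and cleaving proteases, the syndecans Sdc4 and Sdc1 were higher, by 1.26 and 0.47, and the protease gene Dpp4 lower (-0.29).

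Cell type markers moved between the same groups. Of 8 neural stem cell and glial genes 4 were lower in the lines, Fabp7 by a log2 difference of -6.88, Ptprz1 by -6.54, Olig2 by -3.66 and Slc1a3 by -3.41. Of 6 fibroblast genes Col1a1 and Col1a2 were higher, by 1.73 and 3.14, and the summed level of the list was 43.1 to 54.4 in the lines against 38.4 and 38.9 in the NSC cultures. The summed level of 15 macrophage genes was 92.0 to 94.8 in the lines and 91.6 to 93.9 in the NSC cultures, with Csf1r the only gene called, at 0.30. The part of the neural and fibroblast markers in the chemokine differences was not tested.

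The p53 mutant lines were next compared with the p53 WT lines. None of the 55 genes was called in either direction by limma, against 0.00502% of all genes called higher and 0.015% called lower. An unadjusted p under 0.05 was found for 1701 of all 19937 genes and for 5 members. These 5 were Ccl9, higher in mutant lines by 0.69 ± 0.29, and Ccl5 (-0.84 ± 0.34), Cxcl3 (-0.52 ± 0.22), Cxcl13 (-0.21 ± 0.07) and Cxcl15 (-0.21 ± 0.09), with adjusted p between 0.44 and 0.58. Groups did not overlap in Cxcl13 and Ccl5 (3.64% of the members, against 1.69% of all genes). Cxcl13 was under the 25th percentile of all genes in both groups. Ccl5 was 7.53 to 7.91 in the mutant lines, with a median of 7.82, and 8.14, 8.15, 8.04 and 10.04 in the WT lines. Cxcl12 was 8.82 to 10.41 in the mutant and 9.32 to 10.65 in the WT lines, and Ccl2 8.91 to 11.62 and 8.05 to 9.78. Both ranges overlap. Missing the threshold with 6 against 4 cultures does not show that the groups are alike.

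Tumors and normal subcutaneous tissue were compared next. The fit took the 12 tumors as separate samples and did not model that 3 came from each of 4 lines. Its SEs and p-values may therefore be too small. Called members numbered 12 higher and 19 lower in tumors of 55, where 30.7% of all genes were called higher and 45.8% lower. The difference between these shares was not tested. With arrays centred on their medians the split was 15 higher and 15 lower. The shares of all genes under that scaling are not given here. The median difference was -0.23 over the members and -0.28 over all genes, and the groups did not overlap in 18 members (32.7%, against 52.5% of all genes). Of the 17 receptors 4 were higher and 9 lower, and of the 19 CC ligands 5 were higher and 5 lower.

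Ccl12 had the largest difference of the members. It was 6.35, 5.69 and 5.50 in SubQ and 8.16 to 11.52 in the 12 tumors, with a median of 9.69 (difference 4.07 ± 0.49, adjusted p = 9.7e-07). Ccl2 was 6.26, 5.37 and 5.47 in SubQ and 7.57 to 9.95 in tumors, with a median of 8.32 (2.74 ± 0.36, adjusted p = 2.6e-06). Ccl7 was 6.45, 6.05 and 6.55 in SubQ and 7.71 to 9.86 in tumors, with a median of 8.20 (1.97 ± 0.33, adjusted p = 4.1e-05). In these 3 neighbours on chromosome 11, which all encode Ccr2 ligands, every tumor of every line was above every SubQ sample. The other members of that run were not called higher: Ccl8 was 5.65 to 6.85 in SubQ and 5.78 to 8.29 in tumors (difference 0.33, adjusted p = 0.53), Ccl11, an attractant of eosinophils, was 5.72 to 8.68 in tumors and 7.41 to 8.55 in SubQ (difference -0.69, adjusted p = 0.18), and Ccl1 was lower (-1.08 ± 0.17, adjusted p = 1.6e-05).

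Ccr2 itself was 6.14, 6.55 and 6.39 in SubQ and 7.99 to 11.13 in tumors, with a median of 9.28 (difference 3.06 ± 0.44, adjusted p = 7.1e-06). Ccr1, a receptor of monocytes and neutrophils, was 5.71, 5.68 and 4.67 in SubQ and 6.31 to 8.06 in tumors, with a median of 6.69 (1.53 ± 0.32, adjusted p = 0.00032). Both receptors were higher in all 12 tumors than in all SubQ samples. Cxcl10 was 5.78, 6.55 and 5.62 in SubQ and 7.48 to 10.28 in tumors, with a median of 8.23, also without overlap (2.60 ± 0.48, adjusted p = 0.00011).

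**Figure D2:**
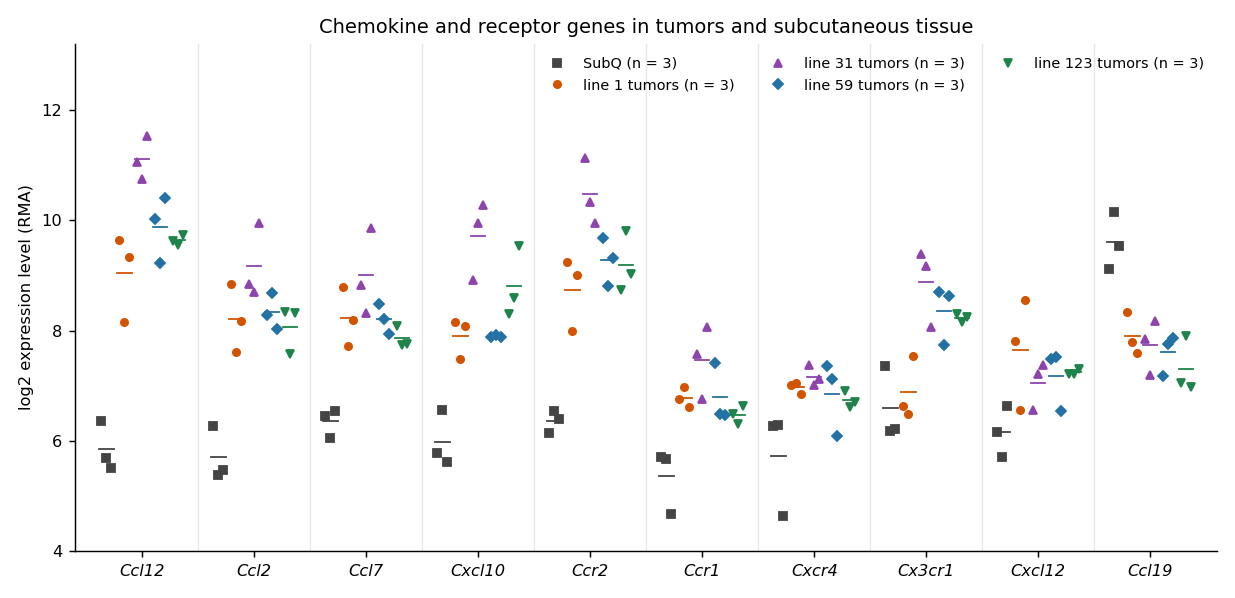
Log2 expression level (RMA, vertical axis) of 10 chemokine and receptor genes in 3 SubQ samples (squares) and 12 tumors of lines 1, 31, 59 and 123, with 3 tumors a line; each point is 1 sample and each bar a group mean. Every tumor lies above every SubQ sample for Ccl12, Ccl2, Ccl7, Cxcl10, Ccr2 and Ccr1, and below every SubQ sample for Ccl19.

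The other 6 genes called higher overlapped between tumors and SubQ. Cxcr4 was 6.27, 6.29 and 4.63 in SubQ and 6.09 to 7.37 in tumors, with a median of 7.01 (difference 1.20 ± 0.29, adjusted p = 0.0012). Its ligand Cxcl12 was 6.16, 5.70 and 6.62 in SubQ and 6.54 to 8.56 in tumors (1.11 ± 0.32, adjusted p = 0.0048). Cx3cr1, the fractalkine receptor of resident macrophages and monocytes, was 7.36, 6.18 and 6.22 in SubQ and 6.48 to 9.40 in tumors (1.50 ± 0.49, adjusted p = 0.010), while its ligand Cx3cl1 was 5.73 to 6.46 in SubQ and 5.74 to 6.84 in tumors (0.09, adjusted p = 0.72). Ccl9 was 6.75, 5.10 and 6.70 in SubQ and 6.73 to 8.65 in tumors (1.42 ± 0.36). Ccl17, a ligand of Ccr4, was 5.14, 4.57 and 5.73 and 5.48 to 7.42 (1.09 ± 0.39), and Cxcl16, the ligand of Cxcr6, was 6.43, 6.22 and 6.36 and 6.20 to 8.52 (0.94 ± 0.40). The call of Cx3cr1 was lost without SubQ sample 2 or 3 (1.30 and 1.32, adjusted p = 0.061 and 0.056). That of Ccl17 was lost without SubQ sample 1 or 2 (1.08 and 0.80, adjusted p = 0.052 and 0.13). The Cxcl16 call was lost in 17 of 28 alternatives, among them the removal of any SubQ sample (0.89 to 0.99), of line 31 tumor 1 or 3, of any line 59 tumor, or of line 123 tumor 1 or 3 (0.87 to 0.95 without 1 of these tumors). Quantile normalization ended the calls of Ccl9, Cxcl12 and Cx3cr1, at 0.91, 0.76 and 0.62.

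Ccl5, Ackr3 and the Cxcr2 axis were not called. Ccl5 was 6.59 to 7.29 in SubQ and 7.03 to 9.72 in tumors (difference 1.00, adjusted p = 0.073), Ackr3 was 5.12 to 5.65 and 5.13 to 6.97 (0.47, adjusted p = 0.11), and Ccl6 was 6.63 to 7.17 and 6.13 to 8.67 (0.42, adjusted p = 0.32). Cxcl1 was 7.63, 6.96 and 6.22 in SubQ and 6.03 to 8.48 in tumors (0.01, adjusted p = 0.99), and Cxcr2 was 4.96, 5.32 and 4.65 in SubQ and 3.58 to 8.09 in tumors (0.27, adjusted p = 0.79). The tumor lines diverged in this axis, as described below.

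Among the genes called lower were Ccl19, which guides cells within lymph nodes, and the lymphocyte receptors Ccr7 and Cxcr5. Ccl19 was 9.12, 10.15 and 9.54 in SubQ and 6.98 to 8.33 in tumors, with a median of 7.78 (difference -1.97 ± 0.27, adjusted p = 4.7e-06), and every tumor was below every SubQ sample. It rests on 1 of 4 probe sets of this gene: their mean gave -0.44 (adjusted p = 0.11). Its receptor Ccr7 was 7.23, 6.99 and 5.87 in SubQ and 5.59 to 6.23 in tumors (-0.82 ± 0.20, adjusted p = 0.0015). Cxcr5, the B cell receptor for Cxcl13, was 5.35 to 5.45 in SubQ and 3.22 to 4.21 in tumors (-1.69 ± 0.17, adjusted p = 1.9e-07). It was under the 25th percentile of the tumors' genes, and at percentiles 25.8 to 31.4 of the SubQ arrays. Cxcl13 was 7.32, 6.30 and 7.06 in SubQ and 4.59 to 6.78 in 11 tumors but 8.32 in the first line 1 tumor, and was not called (-1.23, adjusted p = 0.072).

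Ccr4, Ccr6, Ccr8, Ccr10, Cxcr1, Cxcr3, Xcr1, Xcl1, Ackr1, Ackr2, Ccl1, Ccl4, Ccl26, Ccl28, Cxcl15 and Cxcl17 were the other genes called lower, by -0.28 (Cxcr3) to -1.94 (Cxcl15). Ccl1, a ligand of Ccr8, was at most 6.59 in SubQ and 4.97 to 5.59 in tumors. Ccl28, a ligand of Ccr10, was 5.37, 5.75 and 5.63 in SubQ and 4.36 to 5.10 in tumors. Cxcr1, a neutrophil receptor, was 5.73, 6.09 and 5.94 in SubQ and 4.90 to 5.42 in tumors, and Ccr4, a receptor of helper T cells, was 5.65, 5.50 and 4.39 and 3.91 to 4.29. Xcl1, the ligand of Xcr1, was 7.42, 6.55 and 6.30 in SubQ and 5.10 to 6.99 in tumors, and Xcr1, a dendritic cell receptor, was 4.74, 5.80 and 5.12 and 4.01 to 4.71. Every tumor was below every SubQ sample in Ccl1, Ccl28, Cxcr1, Ccr4 and Xcr1, while Xcl1 overlapped.

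Ccl4, an attractant of monocytes and T cells, was 5.86 to 6.27 in SubQ and 5.24 to 5.80 in tumors. Many tumors, among them each line 123 tumor, had the same Ccl4 value, 5.503. Ccl26, an eosinophil attractant, was 5.01 to 5.70 in SubQ and 4.27 to 4.79 in tumors. Cxcl15 was 5.28 to 5.40 in SubQ and 3.05 to 3.80 in tumors. Ccl4, Ccl26 and Cxcl15 did not overlap between the tissues, nor did Cxcr3, at 5.74 to 6.02 and 5.38 to 5.73. Ackr2 (5.27 to 6.19 and 4.88 to 5.46), Cxcl17 (5.86 to 6.96 and 5.73 to 6.19), Ccr6 (4.69 to 5.72 and 4.36 to 5.03), Ccr8 (3.75 to 4.57 and 3.08 to 3.94) and Ccr10 (6.01 to 6.06 and 5.15 to 6.12) overlapped. Ackr1, the Duffy antigen receptor of venules, was 4.98, 6.19 and 6.36 in SubQ and 4.08 to 4.94 in tumors (-1.34 ± 0.23). Ccl20 was 4.63 to 5.58 in SubQ and 4.67 to 5.17 in tumors, without a call (-0.31, adjusted p = 0.093), and its receptor Ccr6 differed by -0.47 (adjusted p = 0.025).

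Several of these calls turned on 1 SubQ sample and were lost without it: Ccr6 without the first (-0.15), Ccr8 without the second (-0.24), Ackr2 without the third (-0.29), Ccr10 without the third (-0.40), Xcl1 without the first (-0.72), Cxcl17 without the first or second (-0.38 and -0.45) and Cxcr3 without sample 1 (-0.21) or 3 (-0.28). After quantile normalization the differences of Ccr6 and Ccr8 turned to 0.25 and 0.66, and the calls of Ackr2 (-0.27), Ccl26 (-0.11), Ccr4 (-0.41), Cxcr3 (-0.17) and Xcr1 (-0.20) were lost. Of the 19 genes called lower, 9 were under the 25th percentile of the tumors' genes. Among these, Ccr4, Ccr6, Ccr8, Xcr1, Ccl26 and Cxcl15 were under the 25th percentile of the SubQ genes too. The part of the narrow SubQ range in these differences was not tested.

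Of the 31 inducers and NF-kB pathway genes, 12 were higher in tumors and 3 lower, where 30.7% of all genes were higher and 45.8% lower. Their median difference was 0.29 against -0.28 over all genes. Il1b was higher by 3.33, Tlr2 by 1.58, Irf1 by 1.31, and the interferon receptor gene Ifngr1 by 1.23, and Csf2 (-1.62) and Tnf (-1.22) were among the lower genes. Of 27 signalling genes 15 were higher and 4 lower, against the same shares of all genes. The G protein genes Gnb1, Gnai3 and Gnai2 were higher by 3.76, 2.43 and 2.17, and Gnai1 was lower (-1.94). Outside the symbol rule Mif was higher by 3.11, with Cmtm3, Cklf and Cmtm7 at 0.97, 0.67 and 0.55.

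Most macrophage markers were also higher in tumors than in SubQ. Of 15 macrophage genes 14 were higher in tumors, against 30.7% of all genes, and none lower in the limma fit. Unadjusted p was under 0.05 for 14 of them, and for 15546 of all 19937 genes. The median difference of the list was 2.18, led by Lyz2 (5.26). The summed level was 116.5 to 137.2 in tumors against 90.7 to 94.5 in SubQ. Of 11 lymphocyte genes 9 were lower in tumors and none higher, where 45.8% of all genes and 4615 of the 4984 low genes were lower. Their mean percentile was 21.6 to 32.9 in tumors, so they were themselves low there, and the summed level was 46.8 to 54.5 in tumors against 58.2 to 63.5 in SubQ. The host strain on the labels is the same for both. Of 5 adipocyte genes 5 were lower, of 6 skeletal muscle genes 6, and of 7 keratinocyte genes 4, the last near the 45.8% of all genes. Of 8 endothelial genes Emcn (2.18), Cdh5 (1.76) and Pecam1 (1.67) were higher, where 30.7% of all genes were, and none was lower. Their summed level was 48.1 to 59.7 in tumors against 45.3 to 46.4 in SubQ for all 8 genes. Of 6 fibroblast genes Pdgfra (2.21), Col1a2 (1.93), Col1a1 (1.51) and Lum (0.75) were higher and none was lower, and the sum was 49.99 to 59.0 against 44.7 to 48.5. The part of these cell types in the chemokine differences was not tested.

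Lines 31, 59 and 123 were measured both in culture and as tumors. The cell and tissue arrays looked normalized separately, since no cell and tissue array shared an equal value in 180 pairs, while pairs of cell arrays shared 10 to 50 and pairs of tissue arrays 79 to 950. The 2 states were therefore set side by side only as percentiles of the gene among the 19937 genes of its own array, with no test. In 23 of the 55 members (41.8%) all 9 tumors were above their own line, against 15.7% of all genes, and in 7 members (12.7%) all were below, against 23.9% of all genes.

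Ccr2 and Ccl12 lay at the bottom of the cultured lines and near the top of their tumors. Ccr2 was at percentiles 4.21, 5.50 and 5.23 in cultures of lines 31, 59 and 123, and at 98.3 to 99.7, 94.6 to 97.6 and 93.9 to 98.4 in their tumors. Ccl12 was at 8.24, 6.52 and 5.58 in culture and at 99.5 to 99.8, 96.5 to 99.2 and 97.7 to 98.0 in tumors. Ccr1 averaged 5.61 in the cultures and 73.3 in the tumors, Cxcl16 21.0 and 84.1, Ccl6 28.2 and 75.8, and Cxcr4 32.0 and 74.3. Cx3cr1 averaged 61.2 and 92.0. Ccl7 averaged 70.2 in the cultures and 90.9 in the tumors.

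Cxcl12 went the other way. It was at percentiles 89.6, 93.5 and 84.2 in cultures of lines 31, 59 and 123 and at 70.6 to 82.0, 69.0 to 83.0 and 79.2 to 80.7 in their tumors. All 9 tumors were below their own line, as they were for Ccl20, Ccl26, Ccr3, Ccr4, Ccr7 and Cxcr5. Ccl2 was mixed, with an average of 90.2 in the cultures and 92.1 in the tumors. The 3 genes that set the lines apart from normal NSCs, Cxcl12, Ccl2 and Ccl7, were below, on both sides of and above their own line in tumors.

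**Figure D3:**
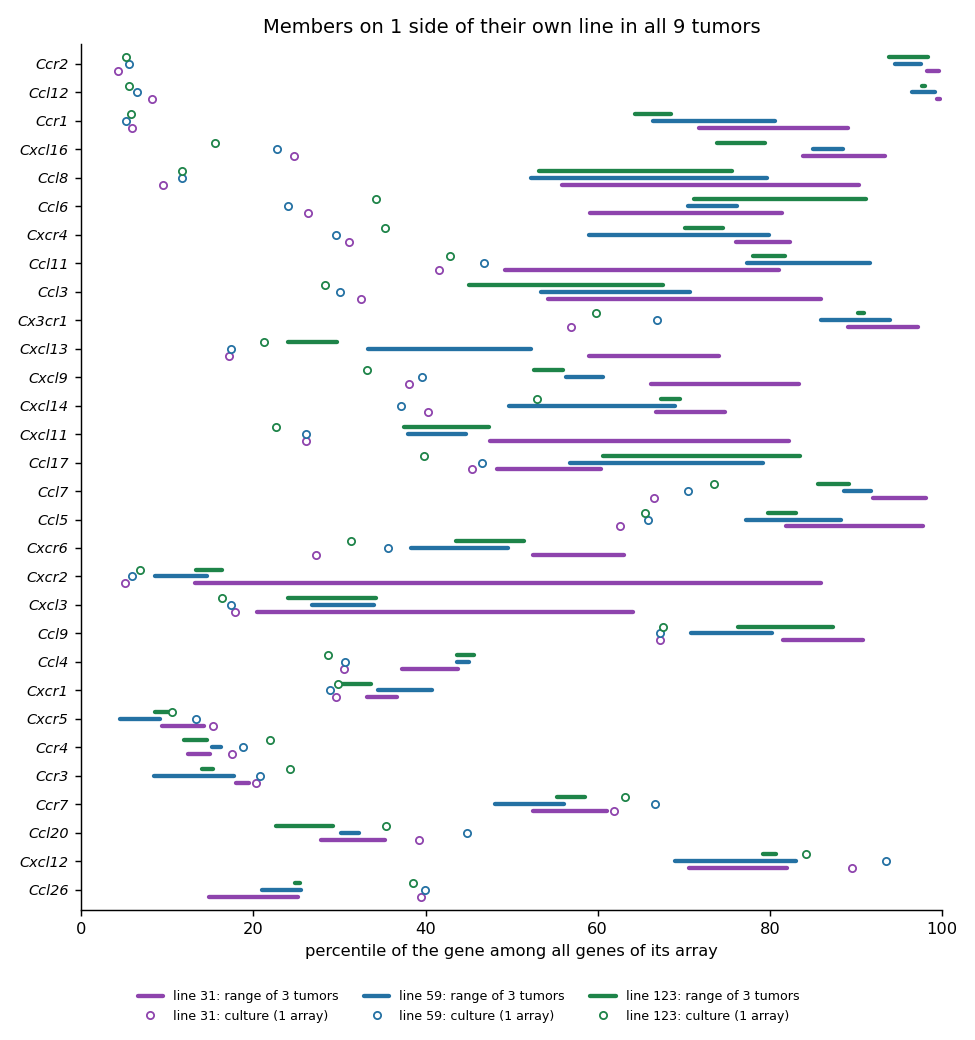
Percentile of each gene among the 19937 genes of its array (horizontal axis) for the 30 members in which all 9 tumors lie on 1 side of their own line; open circles are the single cultures and bars the range of 3 tumors, coloured by line. Ccr2 and Ccl12 lie below percentile 10 in all 3 cultures and above percentile 90 in all 9 tumors, and Cxcl12 lies lower in all 9 tumors than in culture.

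The 4 tumor lines were then compared with each other. The moderated F test of limma called 10 of 55 members, where 5.07% of all genes were called: Cxcl16, Cxcl1, Cxcl3, Cxcl15, Cxcl10, Cxcr2, Ccl12, Ccr3, Cx3cr1 and Cxcl2. The count was 4 without line 1 tumor 3 or without line 123 tumor 3, and 6 without line 31 tumor 1; Cxcl16, Cxcl1 and Cxcl3 were called in every alternative. Cxcl15 lay at the lower end of the array in all tumors (3.05 to 3.80), and Ccr3 at 3.70 to 5.27, so these differences concern low values. The line 1 tumors all had the same Cxcl15 value, 3.55, which leaves no spread within that line. Each of the other 7 calls was lost when 1 of between 2 and 7 particular tumors was left out, with adjusted p up to 0.11. Cxcl10 was lost without line 1 tumor 3 or line 31 tumor 2, and Ccl12 without line 1 tumor 3, line 123 tumor 3 or line 31 tumor 1 or 3. Over all 7 genes these tumors were every tumor of lines 1, 31 and 123 and line 59 tumors 1 and 2.

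Line 1 tumors were higher in 5 members and lower in 3 than the mean of the other lines, where 2.33% and 2.29% of all genes were called. The 5 higher genes were the neutrophil receptor Cxcr2, its ligands Cxcl1, Cxcl2 and Cxcl3, and Ccr3. Cxcr2 was 7.35, 8.09 and 7.03 in line 1 tumors, 3.58 to 4.21 in line 59, 3.98 to 4.22 in line 123, and 4.13, 4.63 and 7.72 in line 31 (difference 2.99 ± 0.56, adjusted p = 0.010). Cxcl2 was 6.50, 7.90 and 6.42 in line 1, 3.74 to 4.22 in line 59, 3.85 to 4.57 in line 123, and 4.24, 4.53 and 6.90 in line 31 (2.48 ± 0.48, adjusted p = 0.012). Cxcl3 was 6.82, 8.07 and 7.37 in line 1 and 4.45 to 6.22 in the other lines (2.41 ± 0.32, adjusted p = 0.0014). Cxcl1 was 7.74, 8.48 and 7.72 in line 1 and 6.03 to 7.56 in the other lines (1.38 ± 0.19, adjusted p = 0.0018).

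For Cxcl1 and Cxcl3 all 3 line 1 tumors were above all 9 others. For Cxcr2 and Cxcl2 line 31 tumor 3 overlapped with line 1 while its sister tumors did not. That tumor was also the highest of all in Cxcl5, at 10.71, where line 1 was at 7.66, 6.46 and 6.66, the other line 31 tumors at 5.92 and 6.28, and lines 59 and 123 at 4.34 to 5.87. Cxcl5 was not called for line 1 or for line 31 (adjusted p = 0.30 for line 31). Without line 1 tumor 2 the adjusted p of Cxcr2 became 0.071 (2.69) and that of Cxcl2 0.085 (2.00), and the line 1 count fell to 4 members. Without line 31 tumor 3 the count was 10. Ccr3, the eosinophil receptor, was higher by 0.78 ± 0.15 (adjusted p = 0.011, and 0.056 without line 1 tumor 3).

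**Figure D4:**
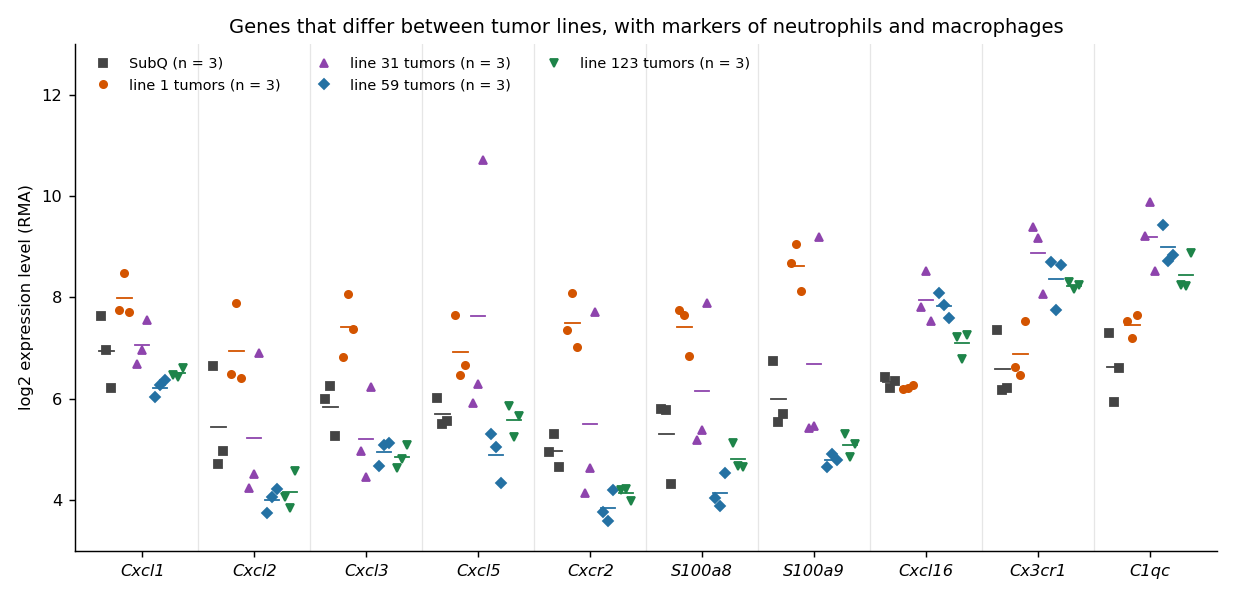
Log2 expression level (RMA, vertical axis) in 3 SubQ samples (squares) and 3 tumors of each line, for Cxcr2 and its ligands, the neutrophil genes S100a8 and S100a9, Cxcl16, Cx3cr1 and the macrophage gene C1qc; each point is 1 sample and each bar a group mean. All 3 line 1 tumors lie above all 9 others for Cxcl1 and Cxcl3; for Cxcl2, Cxcr2, S100a8 and S100a9 a single line 31 tumor overlaps with them, and line 1 tumors are low for Cxcl16, Cx3cr1 and C1qc.

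Some neutrophil markers were also higher in line 1 tumors. Of 8 neutrophil genes, S100a9 (3.10), S100a8 (2.38), Mmp8 (2.10) and Retnlg (1.36) were higher in line 1 tumors, and Csf3r, Ly6g, Mpo and Elane were not called. S100a9 was 8.68, 9.05 and 8.13 in line 1 tumors, 5.43, 5.45 and 9.19 in line 31, 4.65 to 4.92 in line 59 and 4.85 to 5.31 in line 123. The line 31 tumor high in Cxcr2 and Cxcl5 was thus also high in S100a9. Ly6g, a defining gene of mouse neutrophils, was 4.14, 3.83 and 4.02 in line 1, under the 25th percentile of each array. The summed level of the list was 47.5 to 48.8 in line 1, 38.1 to 47.4 in line 31, 34.7 to 37.5 in line 59 and 37.0 to 37.6 in line 123. The part of neutrophils in the chemokine differences was not tested. Outside the symbol rule, Ppbp and Pf4, which encode CXC chemokines of platelets, were higher in line 1 by 3.18 ± 0.40 and 2.04 ± 0.45, and the neutrophil and macrophage protease Mmp9 by 1.77 ± 0.17.

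Cxcl16, Cx3cr1 and Ccl12 were lower in line 1 tumors. Cxcl16 was 6.20, 6.22 and 6.28 in line 1 tumors, close to 6.22 to 6.43 in SubQ, and 6.79 to 8.52 in the other lines (difference -1.40 ± 0.19, adjusted p = 0.0014). Cx3cr1 was 6.63, 6.48 and 7.54 in line 1 and 7.74 to 9.40 in the others (-1.61 ± 0.30, adjusted p = 0.010, and 0.072 without line 1 tumor 2). In both genes the line 1 tumors lay below all 9 others. Ccl12 was 9.64, 8.16 and 9.33 in line 1 and 9.22 to 11.52 in the others (-1.17 ± 0.30, adjusted p = 0.045). Its call was lost when any of 8 single tumors was left out: line 1 tumor 2 or 3, line 31 tumor 1, line 59 tumor 1 or 3, or any line 123 tumor (-0.73 to -1.31). Ccr2 was 7.99 to 9.24 in line 1 and 8.74 to 11.13 in the others, without a call (-0.90, adjusted p = 0.15).

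Of 15 macrophage genes, C1qc (-1.42), C1qb (-1.17), Adgre1 (-0.93) and Aif1 (-0.80) were lower in line 1 tumors and none was higher in the limma fit. Unadjusted p was under 0.05 for 8 of the list, and for 3555 of all 19937 genes. The summed level of that list was 116.5 to 120.9 in line 1, 127.4 to 137.2 in line 31, 122.3 to 135.2 in line 59 and 120.3 to 125.7 in line 123. Of 6 genes of dendritic and Langerhans cells, Cd74 (-2.33), H2-Ab1 (-1.71) and Itgax (-1.47) were lower. The rest of that list, Flt3 (0.22), Zbtb46 (0.17) and Cd207 (0.06), lay slightly the other way and was not called. Of 8 endothelial genes Tek (3.78) and Pecam1 (0.68) were higher in line 1, and the others were not called (0.29 to 1.02). Tek stood apart from its list, at 9.23 to 9.66 in line 1 tumors against 5.40 to 5.93 in the other lines. The summed level, Tek included, was 57.5 to 59.7 in line 1 against 48.1 to 53.5 in the other lines. Of 6 fibroblast genes Pdgfra (2.38) was higher, and the sum was 57.1 to 59.0 against 49.99 to 55.0. The part of these cell types in the chemokine differences was not tested. Among inducers the interferon receptor gene Ifngr1 (-0.86) was lower, and among signalling genes Gng2 (-1.12).

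Line 31 tumors were higher in Ccl12, Cxcl10 and Cxcl16 and lower in none, where 0.627% of all genes were called higher and 0.762% lower. An unadjusted p under 0.05 by limma was found for 14 of 55 members and 2827 of 19937 genes. Ccl12 was 11.05, 10.74 and 11.52 in line 31 tumors, above 8.16 to 10.40 in all other tumors (difference 1.59 ± 0.30, adjusted p = 0.025). Cxcl10 was 8.91, 9.95 and 10.28 against 7.48 to 9.53 (1.51 ± 0.29, adjusted p = 0.027), with line 123 tumor 3 overlapping. Cxcl16 was 7.81, 8.52 and 7.53 against 6.20 to 8.08 (0.89 ± 0.19, adjusted p = 0.039). Ccr2, at 11.13, 10.33 and 9.95, was above all other tumors but missed the threshold (1.40 ± 0.32, adjusted p = 0.056).

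Each line 31 call was lost when particular single tumors were left out. For Ccl12 these were line 31 tumors 1 and 3 (1.61 and 1.38, adjusted p = 0.14 and 0.053). For Cxcl10 they were line 31 tumors 2 and 3, line 1 tumor 3 and line 123 tumor 2 (1.23 to 1.54, adjusted p up to 0.069). For Cxcl16 they were line 1 tumors 2 and 3, line 31 tumors 1 and 2, line 59 tumors 2 and 3 and each line 123 tumor (0.61 to 0.97, adjusted p up to 0.15). The count was 1 without line 1 tumor 3 or line 31 tumor 1 and 6 without line 1 tumor 1. Of the macrophage genes Aif1 (1.22) and Fcer1g (0.87) were higher in line 31, and of the inducers Cebpd (0.84), Ifngr1 (0.83) and Tlr2 (0.67). Line 31 tumors carried the p53 mutant label, as did those of line 59, where Cxcl10 was 7.89, 7.93 and 7.88. The part of the p53 label in the differences between tumor lines was not tested.

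Lines 59 and 123 each had a single called member. In line 59 tumors Cxcl1 was lower, at 6.03, 6.26 and 6.37 against 6.44 to 8.48 in all others (-0.96 ± 0.19, adjusted p = 0.035). There 0.752% of all genes were called higher and 0.416% lower. The call was lost without any of the line 59 or line 123 tumors (-0.87 to -1.04), and 3 members were called without line 31 tumor 3 and 2 without line 31 tumor 2. In line 123 tumors Cxcl15 was lower, at 3.05 to 3.07 against 3.28 to 3.80, a difference of -0.45 ± 0.09 at the lower end of the array (adjusted p = 0.038), where 0.627% of all genes were called higher and 0.221% lower. This call was lost without any of the 3 line 1 or line 123 tumors, line 31 tumor 1 or line 59 tumor 1 or 2, and without line 31 tumor 3 the count was 2.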

How the data were processed

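Total RNA (100 ng per labelling, per the labels' protocols) of 27 samples was hybridised to Affymetrix arrays. Each array's values were deposited as RMA-processed log2 levels of probe sets, per the submitters' processing notes, which list Affymetrix Expression Console and GCOS too, with no version. A genome build is not given in the sources used here. Of 34760 probe sets, 21640 listed with 1 gene were used, giving 19937 genes; the number of arrays limits the precision. Values were used as deposited.

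Groups came from the labels and were compared with limma 3.58.1 (R 4.3.3; lmFit, eBayes), fitted on all genes, with 2-sided p-values adjusted by Benjamini and Hochberg and calls at an adjusted p under 0.05. The code was tested on simulated data. Python 3.11.15, numpy 2.4.6, pandas 2.3.3 and matplotlib 3.10.9 served for the rest.

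Called members are named, and per-sample values given for them, for the 6 with the highest mean in each kind of sample and for set ligand-receptor pairs; other genes come from set lists, when called, at most 6 per list with the largest changes. Members, lists and tests were chosen with earlier results of these data known. The promoter stretch, Ccl8, Ccl26, Cxcl5, the Cxcr6 values, and the genes of the culture comparison were chosen after their values were seen. Alternatives were other probe set rules, filters, scalings, variance settings, blocks and left-out samples.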

Additional observations from a re-analysis of the deposited data

Results flagged for a closer look

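In 44 members with values per sample, 3 groups of cultures were each tested by Dixon's test. A sample stood apart from the rest of its group in 11 of 132 cases, in 7 genes. Chance gives about 1 in 20 for independent cases. These cases were not independent, since the 10 lines hold the cultures of both p53 groups. For Ccl25, Cxcl16 and Ccl5 the same value was counted in the 10 lines and again in a p53 group. Line 95 was apart in Ccl25, at 7.38, lowest of the 10 lines and of the mutant lines. It was also apart in Cxcl16, at 7.47, highest of both groups, and in Cx3cl1, at 10.20, highest of the mutant lines. Line 331 was apart in Ccl5, at 10.04, highest of the 10 lines and of the WT lines, and in Cxcl2, at 4.93, lowest of the WT lines. Line 119 was highest in Cxcl3 of the 10 lines, at 7.11. In Cxcr3, line 116 was lowest of the mutant lines, at 6.67, and line 123 highest of the WT lines, at 7.28.

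The differences between tumor lines were tested by the moderated F test, and 10 members passed, with adjusted p of 0.0031 for Cxcl16, 0.0042 for Cxcl1, 0.0057 for Cxcl3, 0.021 for Cxcl15, 0.022 for Cxcl10, 0.022 for Cxcr2, 0.026 for Ccl12, 0.026 for Ccr3, 0.028 for Cx3cr1 and 0.028 for Cxcl2.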

How the results depend on the processing

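Counts of called members are given first. Lines against NSCs gave 3, 9 with the replicate number as a block, 5 with the p53 mutant lines alone and 1 to 4 with a sample left out. Tumors against SubQ gave 31, 16 among genes above the median level, 18 with a 2-fold minimum and 20 with array quality weights. The F test between tumor lines gave 10, 5 among genes above the median level and 4 to 13 with a tumor left out. With a tumor left out, line 1 gave 4 to 10 against 8, line 31 gave 1 to 6 against 3, line 59 gave 0 to 3 against 1 and line 123 gave 0 to 2 against 1; quantile normalization and the replicate block gave 0 for line 123. Only Ccr6 and Ccr8, for tumors against SubQ, changed sign (0.25 and 0.66 after quantile normalization). The p53 comparison gave 0 in its 16 alternatives, and the shares of members above or below their own line stayed at 23 and 7 after joint quantile normalization, which keeps ranks by construction. Calls held in all alternatives for 1 of 3 members (lines against NSCs), 11 of 31 (tumors against SubQ), 3 of 10 (F test) and 3 of 8 (line 1), and for none in lines 31, 59 and 123. Where no construction explains a change, the cause was not tested. Replicate numbers did not pair the tumors: same-number pairs of deviations (18) correlated at -0.28 to 0.34, different-number pairs (36) at -0.41 to 0.31, and 3 of 12 tumors matched their own number best. The p53 groups have no paired fit because they share no replicate numbers. The part of the narrow range of the SubQ arrays in the tumor comparison was not tested.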
